A study of Mus musculus with 656 samples.

Results

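The inhibitor SC-514 at 25 µM was compared with 0 µM in mouse 3T3 fibroblasts stimulated with IL-1β for 120 min. The comparison holds 8 of the 164 libraries of the series, 4 with 25 µM and 4 with 0 µM, chosen by the labels for stimulus, concentration and time. 3T3 is an established line of mouse embryonic fibroblasts, grown here in medium with 10% calf serum, and no genetic change is labelled in any group. SC-514 was given for 1 hour before IL-1β was added at 1 ng/ml. Further groups used below are cells without stimulus or inhibitor, cells with 50 or 100 µM SC-514 and IL-1β for 120 min, cells with 25 or 0 µM and IL-1β for 15, 30, 60 or 360 min, and cells with 25 or 0 µM and TNF-α at 10 ng/ml for 120 min. Each group has 4 libraries. No group had the inhibitor without a cytokine, so an action of SC-514 in unstimulated cells and an action on the IL-1β response cannot be told apart, and the labels name no vehicle for the 0 µM groups. The labels also carry a conflict: in 160 of 164 libraries the prefix of the sample title differs from that of the description. The same prefix stands on titles of libraries labelled TNF-α and on descriptions of those labelled IL-1β. Descriptions of the libraries labelled TNF-α have no such prefix. Titles and descriptions divide the stimulated libraries into the same sets. Here the stimulus is taken from its own label and from the description, so IL-1β and TNF-α here mean libraries labelled so. Whether replicate libraries were grown as separate cultures is not labelled, and p-values then measure only the spread between these libraries, which may be technical.

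IL-1β binds its receptor on fibroblasts and, through Myd88, the Irak kinases and Traf6, activates the IKK complex. Its subunit IKKβ phosphorylates IκBα, which is then degraded and frees NF-κB dimers to enter the nucleus and switch on chemokine, cytokine and feedback genes. The same receptor activates the MAP kinases p38, JNK and ERK, which act on AP-1 and on the ternary complex factors that partner Srf at the immediate early genes. SC-514 is a small-molecule inhibitor of IKKβ that competes with ATP. The comparison addresses which transcripts of IL-1β-stimulated fibroblasts differ when SC-514 is given at the lowest dose of the series. Inhibition of IKKβ itself was not measured in these libraries.

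Genes of the IL-1β response differ in the elements just upstream of their start, and 150 bases before the RefSeq start (GRCm38.p6, 5′ to 3′ in the direction of the gene) are shown for 8 of them, chosen as named genes with a known element in this stretch. Capitals mark the matches. Il6 (chr5:30012964-30013113, plus strand), Cxcl1 (chr5:90891095-90891244, plus strand), Nfkbia (chr12:55492648-55492797, minus strand) and Ccl20 (chr1:83116616-83116765, plus strand) hold matches to the NF-κB consensus, which in Cxcl1 are 2 overlapping ones. Mmp3 (chr9:7445672-7445821, plus strand) and Serpinb2 (chr1:107511273-107511422, plus strand) hold the AP-1 element. Srf (chr17:46556163-46556312, minus strand), with 2 matches, and Zfp36 (chr7:28379229-28379378, minus strand), with 1, hold CArG boxes, the element that Srf protein binds.
Il6: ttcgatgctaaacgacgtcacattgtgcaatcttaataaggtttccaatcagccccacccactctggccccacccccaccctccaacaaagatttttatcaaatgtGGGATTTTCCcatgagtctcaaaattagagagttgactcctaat
Cxcl1: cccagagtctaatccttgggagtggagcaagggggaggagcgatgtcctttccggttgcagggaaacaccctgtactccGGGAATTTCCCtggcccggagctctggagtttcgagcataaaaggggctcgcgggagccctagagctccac
Nfkbia: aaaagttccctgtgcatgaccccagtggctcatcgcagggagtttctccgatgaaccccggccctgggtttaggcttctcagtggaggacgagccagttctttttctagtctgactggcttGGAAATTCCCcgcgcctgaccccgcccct
Ccl20: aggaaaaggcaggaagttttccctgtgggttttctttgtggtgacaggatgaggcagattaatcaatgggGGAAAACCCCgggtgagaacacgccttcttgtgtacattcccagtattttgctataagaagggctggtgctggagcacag
Mmp3: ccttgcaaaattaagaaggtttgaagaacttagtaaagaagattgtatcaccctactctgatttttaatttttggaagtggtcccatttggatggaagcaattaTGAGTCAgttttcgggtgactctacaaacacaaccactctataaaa
Serpinb2: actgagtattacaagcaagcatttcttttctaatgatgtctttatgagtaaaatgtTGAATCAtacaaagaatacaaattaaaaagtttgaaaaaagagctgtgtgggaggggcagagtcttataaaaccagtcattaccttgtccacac
Srf: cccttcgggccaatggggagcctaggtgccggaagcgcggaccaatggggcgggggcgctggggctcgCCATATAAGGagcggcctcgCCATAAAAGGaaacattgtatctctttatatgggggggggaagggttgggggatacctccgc
Zfp36: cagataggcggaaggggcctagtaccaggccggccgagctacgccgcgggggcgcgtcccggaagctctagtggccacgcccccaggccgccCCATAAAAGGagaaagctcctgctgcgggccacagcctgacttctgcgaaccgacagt
Il6 and Cxcl1 fell at 25 µM, while Nfkbia and Ccl20, with the same kind of match, did not pass the test. Mmp3 and Serpinb2 fell, and Srf and Zfp36 rose. These 8 genes were picked and give no rule that links an element to a direction. Over the wider promoter windows described below, the AP-1 element was in 6.94% for lower and 4.87% for higher genes. The CArG box was in 1.64% and 2.77%.

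The 8 libraries held 1259271 to 1531296 counts and 13483 to 14039 detected genes. Mitochondrial transcripts, a sign of RNA quality, made up 0.576 to 0.599% of counts at 0 µM and 0.491 to 0.674% at 25 µM. Fibroblast markers (11 genes) summed to 7411 to 8043 CPM (counts scaled to a common library total) at 0 µM and 7967 to 8366 at 25 µM. Of 21 markers of other cell types, 19 were in the table and 5 passed the filter on low counts. The sum of the 19 was 103.7 to 135.9 CPM at 0 µM and 184.2 to 214.4 at 25 µM, against 139.9 to 171.8 in unstimulated cells. Most of it was Lpl, the lipoprotein lipase gene, which rose from 96.2 ± 15.2 to 175 ± 15.0 CPM (SD, n = 4). Without Lpl the sums were 22.9 to 29.3 and 25.1 to 35.7 CPM. Adgre1, a macrophage marker, Cdh5 and Tek, endothelial markers, and Epcam, an epithelial marker, had no count in either group. Other markers of these cell types did have counts. Cd68 and Lyz2 of macrophages and Pecam1 of endothelium had counts in both groups, and none of them was called. Of the epithelial markers, Krt8 had counts at 0 µM only and Cdh1 at 25 µM only.

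SC-514 at 25 µM changed expression in IL-1β-stimulated cells in both directions. Lower were 10 of 24 adhesion, protease and effector genes, 4 of 10 cytokines and 3 of 13 chemokines, among them Saa3 at 0.3 times, Mmp3 at 0.439 times, Il6 at 0.514 times and Cxcl1 at 0.575 times the level at 0 µM. Higher were 18 of 29 immediate early genes, among them Fos (4.61-fold), Egr1 (4.47-fold) and Btg2 (3.32-fold), and Ccn1, a matricellular gene, rose 4.05-fold. Of 10766 genes tested, 727 were higher at 25 µM (6.75%) and 774 lower (7.19%), by edgeR's quasi-likelihood test at an adjusted p under 0.05. Most changes were moderate: the median size among the 1501 called genes was 0.49 on the log2 scale, 289 rose and 283 fell by at least 1.5-fold, and 81 rose and 102 fell by at least 2-fold. All 4 libraries of 1 group lay beyond all 4 of the other for 936 genes with 25 µM above (8.69%) and 966 with 25 µM below (8.97%), and 574 of the called higher and 627 of the called lower genes were among these. In counts simulated from these libraries, with 50 genes changed at each size, the test found 42% at 1.5-fold, 84% at 2-fold and 92% at 4-fold. That simulation gave 125 calls against 1501 here. With fewer changed genes the adjustment of p is stricter, so these shares cannot be carried over to the real comparison. Leaving out replicate number 3 in every group left 842 calls, 815 of them among the 1501. In bulk RNA, fewer cells of a kind and less RNA per cell cannot be told apart.

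In the results below, levels are CPM with trimmed-mean scaling, libraries are given in the order of their replicate numbers, and changes are on the log2 scale, 25 against 0 µM. Each count of called list members stands beside 6.75% higher and 7.19% lower among all genes tested. The lists and their members were chosen with earlier results of these data known, so these counts are descriptions only. Among the chemokines 3 of 13 tested members were lower and 0 higher, with a median change of -0.43 against 0.0017 for all genes. Cxcl1, which attracts neutrophils, read 545, 453, 565 and 485 CPM at 0 µM and 302, 309.9, 302 and 260.5 CPM at 25 µM. Every 25 µM library was below every 0 µM library (log2 change -0.80, SE 0.15, adjusted p = 1.79e-05). Cxcl5, a chemokine for the same receptor, read 521, 525, 507 and 493 CPM against 202, 329, 216 and 247 CPM. Its groups were also apart (log2 change -1.04, SE 0.15, adjusted p = 5.71e-08). Cx3cl1, a chemokine tethered to the membrane, was lower more weakly (log2 change -0.43, SE 0.14, adjusted p = 0.0257). That call was lost without number 3 or 4 at 25 µM (adjusted p = 0.0779 and 0.0826) and without number 1 at 0 µM (0.141).

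The monocyte chemokines and Ccl20 did not pass the test. Ccl2 read 3280.0, 2964, 3023 and 2805 CPM at 0 µM and 3034, 3049, 2708 and 3055 CPM at 25 µM, and the groups overlapped. Its change of -0.028 had a 95% interval of -0.25 to 0.19. Ccl7, which attracts the same cells, was at 1282 ± 67.5 and 1421 ± 107 CPM (SD, n = 4; change 0.15, interval -0.13 to 0.43). Ccl20, which attracts Ccr6-bearing lymphocytes, read 295, 305, 221 and 226 CPM against 208, 299, 178 and 266 CPM, again with overlap (interval -0.49 to 0.20). Cxcl2, another neutrophil chemokine, was low, at 13.1 ± 3.26 and 6.67 ± 2.73 CPM (SD, n = 4), with overlapping groups, an interval of -1.69 to -0.23 and an adjusted p of 0.0674.

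Among 10 tested cytokine and growth factor genes 4 were lower and 1 higher, with a median of -0.57. Il6, the cytokine of the acute phase response, read 199.7, 172, 176 and 168 CPM at 0 µM and 128, 70.2, 89.9 and 78.5 CPM at 25 µM. The groups did not overlap, with number 1 highest in each (log2 change -0.96, SE 0.21, adjusted p = 0.000285). Il11, a cytokine of the IL-6 family, read 56.6, 71.7, 52.6 and 66.8 CPM against 24.4, 20.6, 32.0 and 23.4 CPM, also without overlap (log2 change -1.30, SE 0.23, adjusted p = 6.25e-06). Il1a and Il33, both IL-1 family alarmins, were low throughout: Il1a gave 41 counts over the 4 libraries at 0 µM and 7 at 25 µM (log2 change -2.41, SE 0.54, adjusted p = 0.000444), and Il33 gave 57 and 12 (log2 change -2.15, SE 0.43, adjusted p = 7.59e-05). Csf1, the macrophage growth factor, read 836, 813, 784 and 806 CPM against 1025, 1175, 912 and 1004 CPM. It rose (log2 change 0.35, SE 0.081, adjusted p = 0.00092), a call lost without number 2 in every group (adjusted p = 0.0515). Lif, another IL-6 family member, read 471, 469, 417 and 399 CPM against 588, 528, 574 and 578 CPM. All 4 libraries at 25 µM were above those at 0 µM, but the adjusted p was 0.121. Csf2, which encodes GM-CSF, was at 49.8 ± 11.3 and 54.5 ± 10.2 CPM (SD, n = 4; interval of the change -0.26 to 0.54).

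Among the adhesion, protease and effector genes 10 of 24 tested members were lower and 1 higher, with a median of -0.42. Mmp3, the matrix protease stromelysin-1, read 795, 792, 804 and 848 CPM at 0 µM and 378, 348, 372 and 324 CPM at 25 µM. The spread within each group was small beside the gap (log2 change -1.19, SE 0.10, adjusted p = 6.82e-18). Ptges, the enzyme that completes prostaglandin E2, read 867, 801, 854 and 847 CPM against 472, 433, 413 and 399 CPM (log2 change -0.97, SE 0.091, adjusted p = 4.83e-16). Saa3, an acute phase protein, read 547, 324, 468 and 399.7 CPM against 145, 126, 138 and 110.2 CPM. The highest 25 µM library was far below the lowest at 0 µM (log2 change -1.74, SE 0.17, adjusted p = 1.38e-15). Icam1, the leukocyte adhesion molecule, read 58.6, 37.6, 48.9 and 41.6 CPM against 32.1, 23.4, 18.4 and 26.7 CPM, without overlap (log2 change -0.89, SE 0.22, adjusted p = 0.00177).

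The other falling members were Mmp10, Plaur, Nos2, Sod2, Slc7a2 and Nlrp3. Mmp10, a protease close to Mmp3, went from 73.5 ± 12.9 to 32.5 ± 2.97 CPM (SD, n = 4). Nos2, the inducible nitric oxide synthase, went from 15.4 ± 6.23 to 3.54 ± 1.68 CPM, and Sod2, the mitochondrial superoxide dismutase, from 503 ± 37.1 to 351 ± 22.6 CPM. Plaur, the urokinase receptor, went from 251 ± 33.5 to 174 ± 15.6 CPM, and Slc7a2, a transporter of arginine, from 297 ± 50.1 to 180.0 ± 16.9 CPM. The weakest call was Nlrp3, the inflammasome sensor, at 10.4 ± 5.96 and 4.61 ± 1.75 CPM with overlapping groups (adjusted p = 0.0332). Leaving out number 2 or 3 at 25 µM, or number 1 or 2 at 0 µM, ended it (adjusted p = 0.0602, 0.162, 0.167 and 0.191). F3, which encodes tissue factor and starts coagulation, rose from 254 ± 23.5 to 467 ± 57.8 CPM (SD, n = 4; log2 change 0.88, SE 0.16, adjusted p = 8.22e-06). Ptgs2, the inducible cyclooxygenase that supplies Ptges, read 816, 764, 711 and 669 CPM against 822, 771, 785 and 845 CPM. Its groups overlapped (change 0.12, interval -0.17 to 0.41). Vcam1, a further adhesion molecule, was at 1085 ± 117 and 982 ± 119 CPM (interval -0.34 to 0.056).

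**Figure D1:**
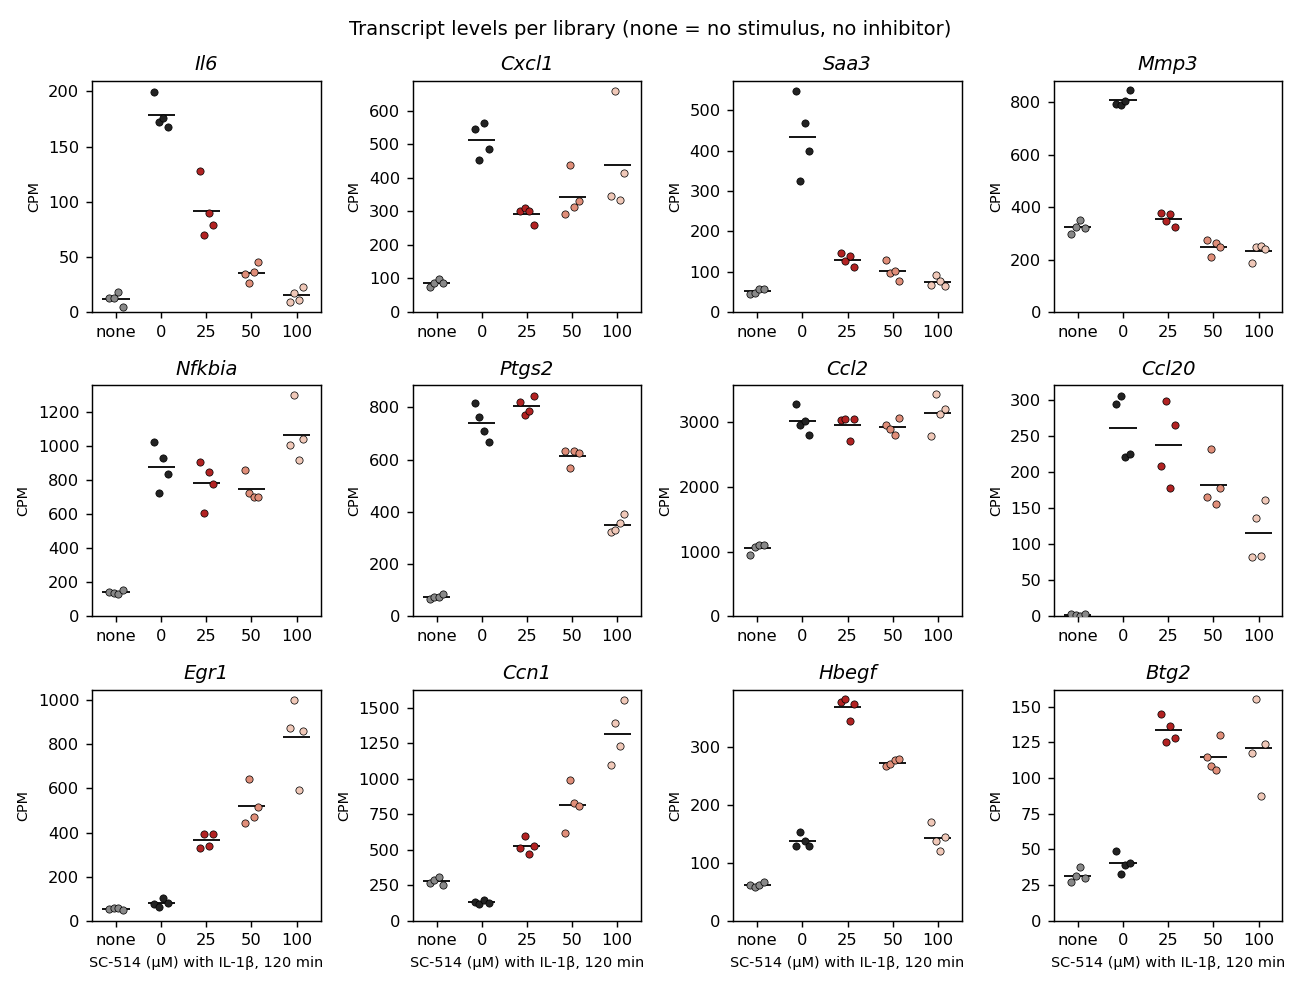
Transcript level in CPM (vertical axes, linear from 0) of 12 genes in each library, for cells without stimulus and cells given IL-1β for 120 min with 0, 25, 50 or 100 µM SC-514; points are libraries and bars are means of 4. Il6, Cxcl1, Saa3 and Mmp3 lie lower at 25 than at 0 µM, Nfkbia, Ptgs2, Ccl2 and Ccl20 overlap between 0 and 25 µM, and Egr1, Ccn1, Hbegf and Btg2 lie higher at 25 µM.

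Genes that encode NF-κB subunits and IκB inhibitors were called at a share near that of all genes tested (6.75% higher and 7.19% lower). Of the 6 IκB genes 0 passed in either direction (median -0.20). Nfkbia, which encodes IκBα and is a feedback target of NF-κB, read 1025, 723, 933 and 838 CPM at 0 µM and 909, 608, 846 and 778 CPM at 25 µM. The groups overlapped (change -0.16, interval -0.40 to 0.078, adjusted p = 0.429). Nfkbiz, an atypical IκB, was at 41.7 ± 5.94 and 44.6 ± 5.55 CPM (SD, n = 4; interval -0.27 to 0.47). Of the 5 subunit genes 1 passed: Nfkb1, the precursor of p50, read 205, 201, 204 and 198 CPM against 169.6, 142, 138 and 149 CPM (log2 change -0.43, SE 0.10, adjusted p = 0.00101).

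Among 12 NF-κB feedback genes 3 were lower and 1 higher. Traf1, an adaptor of TNF receptors, fell from 121 ± 16.2 to 69.0 ± 3.23 CPM (SD, n = 4; log2 change -0.80, SE 0.14, adjusted p = 2.3e-06). Tnip1, which binds A20, fell from 255 ± 35.5 to 193 ± 14.0 CPM (log2 change -0.40, SE 0.10, adjusted p = 0.00153). Tnfaip3, which encodes A20 itself, a brake on IKK, read 189, 115, 164 and 113 CPM against 99.8, 123, 81.0 and 98.5 CPM. Its groups overlapped and its call (log2 change -0.53, SE 0.17, adjusted p = 0.0232) was not stable. The adjusted p was 0.118 without number 3 at 25 µM, 0.183 without number 1 at 0 µM, 0.0931 without number 3 at 0 µM, and 0.153 in a fit of the 8 libraries alone. Zfp36, which encodes tristetraprolin, a protein that speeds the decay of cytokine messenger RNAs, read 90.1, 56.0, 86.7 and 67.5 CPM against 230.3, 125, 206 and 164 CPM. It rose (log2 change 1.28, SE 0.20, adjusted p = 3.07e-07), with number 2 lowest in each group.

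Upstream of NF-κB, 1 of 10 IKK complex and kinase genes (10.0% lower) and 3 of 11 IL-1 receptor pathway genes (9.1% higher, 18.2% lower) passed. Among all genes tested 6.75% were higher and 7.19% lower. Ikbkb, which encodes IKKβ, read 57.3, 57.4, 40.0 and 60.7 CPM at 0 µM and 49.5, 48.9, 38.1 and 53.4 CPM at 25 µM (adjusted p = 0.448). SC-514 acts on the protein, so this level is no check of the inhibition. Il1rn, the secreted antagonist of the IL-1 receptor, fell from 78.8 ± 17.2 to 38.8 ± 7.06 CPM (SD, n = 4; log2 change -1.04, SE 0.17, adjusted p = 1.1e-06). The other calls were weaker. Ikbke, a relative of IKKβ, was lower (log2 change -0.72, SE 0.23, adjusted p = 0.0182; 0.0614 without number 1 at 25 µM and 0.0665 without number 3 at 0 µM). Il1rap, the second chain of the receptor, was lower (log2 change -0.35, SE 0.11, adjusted p = 0.0163; 0.104 without number 2 at 25 µM). Tollip, an adaptor of the pathway, was higher (log2 change 0.35, SE 0.11, adjusted p = 0.0172; 0.0593 and 0.0591 without number 3 or 4 at 25 µM, 0.0818 and 0.0712 without number 1 or 3 at 0 µM).

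Of 29 tested immediate early genes, which MAP kinases switch on within minutes and without new protein, 18 were higher and 1 lower, with a median of 0.69. Egr1, a zinc finger factor, read 76.8, 64.2, 104 and 80.5 CPM at 0 µM and 330.1, 395, 339.8 and 392 CPM at 25 µM. The groups were far apart (log2 change 2.16, SE 0.23, adjusted p = 1.2e-13). Fos, an AP-1 subunit, read 6.28, 4.78, 5.19 and 4.09 CPM against 24.4, 29.8, 19.1 and 21.7 CPM (log2 change 2.21, SE 0.43, adjusted p = 5.37e-05). Btg2, an antiproliferative gene, read 48.9, 32.8, 39.3 and 40.2 CPM against 145, 126, 136 and 128 CPM (log2 change 1.73, SE 0.19, adjusted p = 3.68e-12). In all 3 the lowest library at 25 µM was above the highest at 0 µM.

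Ier2, a nuclear protein of the immediate early class, read 122, 146, 169.7 and 144 CPM against 324, 312, 328 and 306 CPM (log2 change 1.13, SE 0.15, adjusted p = 9.2e-10). Junb, a further AP-1 subunit, read 210.2, 222, 219 and 216 CPM against 461, 536, 415 and 438 CPM (log2 change 1.09, SE 0.15, adjusted p = 3.95e-09). Srf, which encodes the factor that drives many genes of this class, rose from 63.8 ± 9.68 to 121 ± 14.1 CPM (SD, n = 4; log2 change 0.92, SE 0.13, adjusted p = 1.05e-08). Nr4a1, an orphan nuclear receptor, rose from 213 ± 46.2 to 415 ± 18.4 CPM, while its relative Nr4a2 was the falling member, from 20.7 ± 4.03 to 8.26 ± 2.48 CPM (log2 change -1.31, SE 0.29, adjusted p = 0.000306). Ier3, a survival gene of this class, rose from 347 ± 12.5 to 497 ± 45.6 CPM (log2 change 0.52, SE 0.11, adjusted p = 0.000306). Atf3, a stress-responsive partner of AP-1, was nearest to the threshold, at 10.6 ± 4.07 and 18.2 ± 4.24 CPM with overlapping groups (adjusted p = 0.0479), and the call was lost without any of 5 single libraries (0.224, 0.0505 and 0.0808 without number 2, 3 or 4 at 25 µM, 0.203 and 0.146 without number 1 or 3 at 0 µM).

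Feedback genes of the ERK pathway and EGF receptor ligands gave 7 higher and 1 lower of 14 tested, with a median of 0.71. Hbegf, a ligand of the EGF receptor, read 129.9, 153, 138 and 129.6 CPM at 0 µM and 378, 383, 344 and 375 CPM at 25 µM. The groups were far apart (log2 change 1.43, SE 0.17, adjusted p = 9.41e-11). Dusp6, the phosphatase that switches off ERK, read 119, 124, 109 and 125 CPM against 244, 267, 259 and 254 CPM (log2 change 1.10, SE 0.13, adjusted p = 2.5e-11). Dusp5, a nuclear ERK phosphatase, rose from 226 ± 25.6 to 489.9 ± 18.1 CPM (SD, n = 4; log2 change 1.11, SE 0.15, adjusted p = 1.66e-09), and Phlda1 from 428 ± 20.4 to 786 ± 60.3 CPM (log2 change 0.88, SE 0.10, adjusted p = 2.95e-11). Etv4, an ETS factor downstream of ERK, was the falling member, from 62.2 ± 6.24 to 24.8 ± 4.90 CPM (log2 change -1.31, SE 0.18, adjusted p = 1.13e-09). Socs3, the feedback inhibitor of gp130 cytokine receptors, rose from 80.8 ± 11.3 to 184 ± 56.3 CPM (log2 change 1.19, SE 0.24, adjusted p = 7.95e-05). Of the genes for gp130 ligands described above, Il6 and Il11 fell. Lif read higher in every library at 25 µM but did not pass the test.

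In the list of matrix, contractile and YAP genes 7 of 17 tested members were higher and 1 lower, with a median of 0.03. Ccn1, a secreted matricellular protein, read 133, 119.5, 145 and 121 CPM against 509, 598, 469 and 525 CPM (log2 change 2.02, SE 0.19, adjusted p = 2.8e-15). Ccn2, its relative, read 15.4, 26.6, 16.3 and 19.8 CPM against 78.2, 131, 57.9 and 68.5 CPM (log2 change 2.10, SE 0.31, adjusted p = 8.95e-08), with number 2 highest in both groups. Ankrd1, a YAP target, rose from 62.8 ± 7.95 to 144 ± 42.8 CPM (SD, n = 4; log2 change 1.19, SE 0.22, adjusted p = 2.57e-05). Of the collagen genes in this list Col1a1 and Col5a1 did not pass. Col1a2 rose from 2043 ± 30.1 to 2443 ± 64.3 CPM and Col3a1 from 187 ± 7.34 to 283 ± 23.6 CPM. Tagln, an actin-binding protein of contractile cells, fell from 51.3 ± 13.7 to 22.5 ± 3.71 CPM (log2 change -1.19, SE 0.23, adjusted p = 4.51e-05).

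Of the 6 BMP and TGF-β targets, 5 were higher and 0 lower, with a median of 0.84. The Id genes encode inhibitors of basic helix-loop-helix factors, and Smad6 and Smad7 are feedback inhibitors of the receptors. Id1 read 161, 178, 153 and 169.8 CPM at 0 µM and 259, 325, 257 and 268 CPM at 25 µM (log2 change 0.74, SE 0.14, adjusted p = 3.83e-05). Id3 read 168, 214, 165 and 171 CPM against 258, 489, 276 and 357 CPM (log2 change 0.94, SE 0.20, adjusted p = 0.000176). Smad6 read 14.0, 15.0, 10.4 and 13.0 CPM against 30.7, 64.5, 38.8 and 34.2 CPM (log2 change 1.68, SE 0.36, adjusted p = 0.000218). Number 2 at 25 µM was highest in Id1, Id2, Id3 and Smad6, as it was in Ccn2 and Ankrd1. Without it Id2, at 8.05 ± 1.57 and 21.6 ± 8.82 CPM (SD, n = 4), and Smad7, at 51.6 ± 5.90 and 83.0 ± 12.5 CPM, no longer passed (adjusted p = 0.0943 and 0.0586). Smad7 was lost also without number 3 at 25 µM or number 2 or 3 at 0 µM (0.126, 0.0881 and 0.0698).

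**Figure D2:**
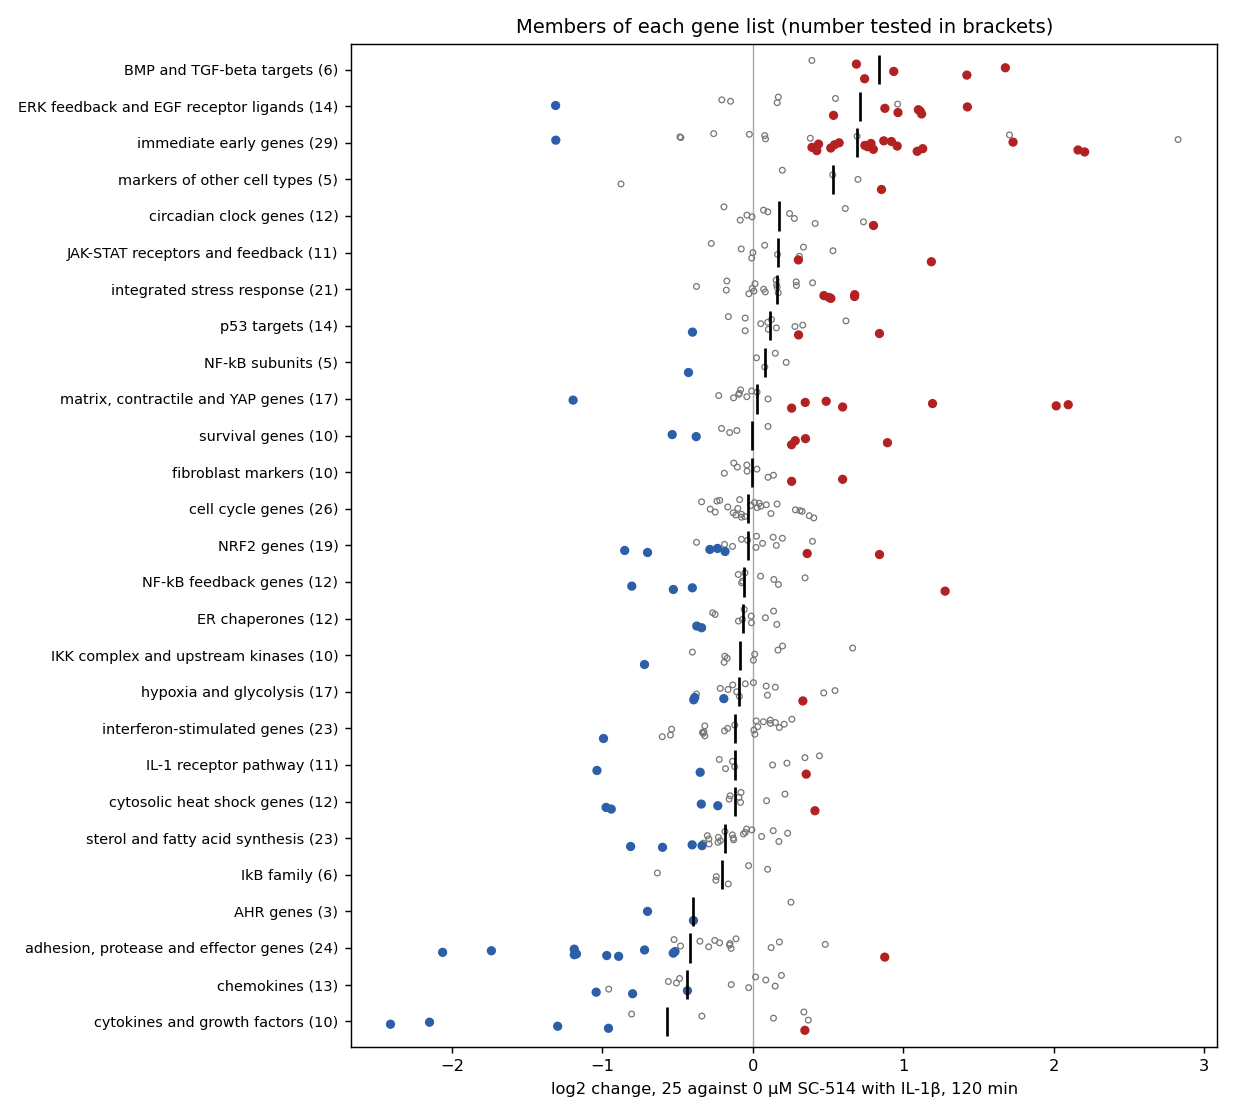
Change between 25 and 0 µM SC-514 on the log2 scale (horizontal axis) of the tested members of the gene lists, ordered by median; filled points passed at an adjusted p under 0.05 (red higher, blue lower), open points did not, and black bars are medians. BMP targets (median 0.84), ERK feedback (0.71) and immediate early genes (0.69) lie at the top, and chemokines (-0.43) and cytokines (-0.57) at the bottom.

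Stress pathways gave calls in both directions, beside 6.75% higher and 7.19% lower among all genes tested. Among 12 cytosolic heat shock genes 4 were lower and 1 higher. Hsph1, a chaperone of the HSP110 family, read 336, 342, 314 and 363 CPM at 0 µM and 182, 169.5, 159 and 179.5 CPM at 25 µM (log2 change -0.97, SE 0.086, adjusted p = 2.62e-18). It was at 353 CPM in unstimulated cells, close to the level in IL-1β. Hspa1b, an inducible HSP70, fell from 47.8 ± 2.73 to 24.8 ± 5.08 CPM (SD, n = 4), and Dnajb1, an HSP40 partner of HSP70, rose from 86.0 ± 7.23 to 114 ± 10.6 CPM. The NRF2 list had 2 of 19 higher and 5 lower. Hmox1, the inducible heme oxygenase, rose from 114 ± 5.78 to 205 ± 19.9 CPM (log2 change 0.84, SE 0.17, adjusted p = 0.000136). Gsta4, a glutathione transferase, fell from 248 ± 32.2 to 138 ± 17.2 CPM (log2 change -0.85, SE 0.17, adjusted p = 5.33e-05). Members of that list thus moved apart, and 3 of its 5 falling members, Prdx1, G6pdx and Pgd, each lost the call without any of several single libraries. Integrated stress response genes gave 5 higher and 0 lower of 21. Of these 5, Vldlr, a lipoprotein receptor, changed from 99.2 ± 16.4 to 159 ± 3.54 CPM (log2 change 0.68, SE 0.094, adjusted p = 4.01e-09), and Ddit3, which encodes CHOP, lost its call without number 2 at 25 µM (adjusted p = 0.119), as did Sesn2 (0.307), Ddit4 (0.0594) and Herpud1 (0.16).

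Sterol and fatty acid synthesis genes gave 4 lower (17.4%) and 0 higher of 23, beside 7.19% lower and 6.75% higher among all genes tested. Idi1, an enzyme of isoprenoid synthesis, fell from 191 ± 31.4 to 109 ± 27.9 CPM (SD, n = 4; log2 change -0.81, SE 0.15, adjusted p = 3.04e-05). Survival genes gave 4 higher and 2 lower of 10. Cflar, which encodes the caspase-8 inhibitor c-FLIP, fell from 158 ± 12.9 to 109 ± 10.2 CPM (log2 change -0.54, SE 0.10, adjusted p = 1.89e-05), and Bcl2 rose from 21.2 ± 4.97 to 39.7 ± 5.68 CPM (log2 change 0.89, SE 0.18, adjusted p = 0.000112). Interferon-stimulated genes gave 1 lower of 23 (4.3%, under the share of all genes), Stat2 (adjusted p = 0.0379). The call was lost without any of 6 single libraries, number 1, 2 or 4 at 25 µM (0.0996, 0.106 and 0.0527) or number 1, 3 or 4 at 0 µM (0.0687, 0.11 and 0.0622). Cell cycle genes gave 0 calls in 26, and Mki67, the proliferation marker, was at 143 ± 35.1 and 189 ± 28.3 CPM (interval -0.073 to 0.88).

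Called genes with at least 5 CPM in the higher group and no overlap between groups were ranked by fold. Predicted, ribosomal protein and mitochondrial genes were left out. The 10 largest falls in this ranking were those of Serpinb2, Trpv4, Kcnk10, Il1a, Ramp3, Stfa3, Plet1, Il33, Il1f6 and Gpr84. Serpinb2, an inhibitor of plasminogen activators, read 30.7, 25.3, 30.4 and 35.5 CPM at 0 µM and 2.09, 3.55, 4.08 and 5.01 CPM at 25 µM (log2 change -3.03, SE 0.36, adjusted p = 2.39e-11). Ramp3, a partner of calcitonin family receptors, read 169.7, 155, 138 and 205 CPM against 32.1, 26.9, 40.2 and 27.6 CPM (log2 change -2.39, SE 0.25, adjusted p = 1.09e-13). Kcnk10, a potassium channel, went from 19.9 ± 5.54 to 3.44 ± 0.51 CPM (SD, n = 4). The other 7 rested on few reads, between 29 (Gpr84) and 57 (Il33) counts over the 4 libraries at 0 µM and between 5 (Trpv4) and 12 (Il33) at 25 µM. Gpr84 lost its call without number 4 in every group (adjusted p = 0.0737) and Il1f6, an IL-36 cytokine gene, without number 2 (0.0604).

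The 10 largest rises in the same ranking were those of Limch1, Fos, Egr1, Ccn2, Ccn1, Lrrc17, Kctd11, Map3k1, Btg2 and Ptger4. Kctd11, an adaptor of a ubiquitin ligase, read 35.6, 35.5, 34.8 and 38.9 CPM against 140.3, 114, 129 and 102 CPM (log2 change 1.74, SE 0.17, adjusted p = 1.38e-15). Ptger4, a receptor of prostaglandin E2, read 5.59, 8.20, 12.6 and 10.2 CPM against 22.3, 31.2, 34.0 and 33.4 CPM (log2 change 1.72, SE 0.23, adjusted p = 1.05e-09). The receptor rose where Ptges, the enzyme that makes its ligand, fell. Map3k1, a kinase upstream of JNK, went from 3.47 ± 1.17 to 12.0 ± 3.77 CPM (SD, n = 4), Limch1 from 1.04 ± 0.37 to 5.45 ± 1.61 CPM and Lrrc17 from 2.65 ± 1.38 to 9.09 ± 1.22 CPM. Lrrc17 lost its call without number 2 in every group (adjusted p = 0.0597).

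Levels in unstimulated cells show where each gene started. With IL-1β at 0 µM against no stimulus 880 genes were higher (8.17%) and 469 lower (4.36%). This comparison shares its 0 µM libraries with that of the inhibitor, so mean levels are given side by side only. Il6 was at 11.7 CPM unstimulated, 179 with IL-1β and 91.6 with IL-1β and 25 µM. Cxcl1 was at 86.2, 512 and 294 CPM, Icam1 at 0.84, 46.7 and 25.1 CPM, and Ptges at 150.4, 842 and 429 CPM. At 25 µM these 4 means were between the other 2. Mmp3 was at 323, 809.8 and 355 CPM and Serpinb2 at 5.09, 30.5 and 3.68 CPM, so their means at 25 µM were near the unstimulated ones. Ramp3 was at 97.4, 167 and 31.7 CPM, below the unstimulated mean at 25 µM. Ccn1, at 278, 129.9 and 525 CPM, and Id1, at 332, 166 and 277 CPM, had lower means with IL-1β than without stimulus.

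For genes raised early by IL-1β a separate set of libraries was used. With IL-1β for 60 min at 0 µM against no stimulus 295 genes were higher (2.74%), in libraries that are not in the comparison at 120 min. Of these, 60 were higher (20.3%) and 66 lower (22.4%) with 25 µM at 120 min, against 6.75% and 7.19% of all genes tested, with a median change of -0.04. Both shares were thus about 3 times the background. This set was added after results had been seen, and no test was made of it.

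From 25 to 50 µM 5 genes were higher (0.0464%) and 52 lower (0.483%). Il6 read 34.8, 26.2, 36.5 and 45.0 CPM at 50 µM, all below the 25 µM libraries (step -1.39, SE 0.27, adjusted p = 0.00114, and 0.1 without number 1 in every group). Il11 went from 25.1 to 5.69 CPM (step -2.12, SE 0.37, adjusted p = 0.000259). Mmp3 and Ptges were lower again, by steps of -0.52 and -0.41 (adjusted p = 0.00535 and 0.016). Mmp10 went from 32.5 to 11.7 CPM (adjusted p = 0.00409; 0.0746 and 0.161 without number 2 or 3), and Pde4b, a cyclic AMP phosphodiesterase, from 47.8 to 23.2 CPM (adjusted p = 0.00545; 0.115 and 0.0775 without number 1 or 4). Areg, an EGF receptor ligand, had not passed at 25 against 0 µM (change 0.55, adjusted p = 0.0915) and went from 38.0 CPM at 25 µM to 16.1 CPM at 50 µM (adjusted p = 0.00349; 0.127 without number 3). Of the 5 that rose, Mknk2, a kinase downstream of ERK and p38, changed by 0.60 (adjusted p = 0.00347; 0.0887 and 0.0571 without number 3 or 4). Znhit1, Rex1bd, Dynll1 and Yeats4 changed by 0.21 (Yeats4) to 0.50 (Znhit1), and each lost the call in at least 3 of the 4 fits without 1 number. Only 15 genes passed without number 3, 16 without number 1 and 21 without number 4.

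From 25 to 100 µM 545 genes were higher (5.06%) and 868 lower (8.06%). The higher share of these calls was 38.6%, and 52.1% with relative log expression in place of trimmed-mean scaling. With relative log expression and without the 2 shallow libraries of the series it was 41.3%, of 1447 calls. With trimmed-mean scaling and without these 2 libraries it was 41.7%, of 1433 calls. Without number 1 or 3 in every group 896 and 842 genes passed in place of 1413. Number 1 at 100 µM had 14634 detected genes against 13198 to 13350 in the other 3, and without it 985 genes passed. Il6 reached 9.33, 17.2, 10.9 and 22.4 CPM at 100 µM (step from 25 µM -2.61, SE 0.33, adjusted p = 4.6e-10). Cxcl1 went the other way: it read 347, 659.9, 333 and 413 CPM at 100 µM, all above the 25 µM libraries and with number 2 highest (step 0.58, SE 0.15, adjusted p = 0.0039).

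Rising genes of the 25 µM comparison differed at the highest dose. Egr1 and Ccn1 were higher again at 100 than at 25 µM, by 1.20 and 1.33 (adjusted p = 3.48e-07 and 3.9e-10). Egr1 read 873, 1000.0, 595 and 859.5 CPM there. Hbegf and Dusp6 were lower at 100 than at 25 µM, with steps of -1.36 and -1.20 (adjusted p = 2.05e-09 and 8.48e-12). Their means at 100 µM were 144 and 112 CPM, near the 138 and 119 CPM of 0 µM. Fosb, another AP-1 subunit, was at 1.74 CPM at 0 µM, at 12.7 CPM at 25 µM with an adjusted p of 0.0974, and at 77.5 CPM at 100 µM (step from 25 µM 2.58, adjusted p = 0.000758). Inhba, a subunit of activin, was at 155 and 154 CPM at 0 and 25 µM and fell to 30.7 CPM at 100 µM (adjusted p = 4.42e-17). Pkib, an inhibitor of protein kinase A, passed this step only with number 1 at 100 µM (step 2.64; adjusted p = 0.556 without it). Histone genes Hist2h3c1 and Hist2h3c2, whose copies share sequence, were higher by 2.80 and 2.64 (adjusted p = 3.51e-12 and 3.84e-06). Sema7a, a membrane semaphorin, was lower at 100 than at 25 µM by a step of -2.66 (adjusted p = 0.000478).

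At the other times, in libraries outside the comparison at 120 min, most of the called genes had a change of the same sign. At 60 min the sign was the same in 95.6% of the higher and 97.7% of the lower genes, against 73.4% of all genes tested. At 15 min these shares were 93.4% and 89.8% (68.1% of all genes), and at 30 min 92.3% and 89.7% (67.5%). At 360 min they were 69.2% and 84.4% (60.8%). In a direct test of the change at 120 min against the mean change at the other 4 times, 27 genes were higher (0.251%) and 13 lower (0.121%). Without 1 number in every group 8 to 22 genes passed that test.

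Immediate early genes were among those 27. The change in Btg2 was 0.60, -0.26, -0.027 and -0.41 at 15, 30, 60 and 360 min and 1.73 at 120 min (difference 1.75, SE 0.22, adjusted p = 7.43e-09). In Egr1 it was 1.64, 0.54, 0.31 and 0.42 against 2.16 (difference 1.43, SE 0.25, adjusted p = 0.000214, and 0.0507 without number 4 in every group). In Ccn1 it was 0.87, 0.77, 0.74 and 0.18 against 2.02 (difference 1.38, SE 0.21, adjusted p = 1.18e-05). So the change in Btg2 at 120 min stood apart from the changes of either sign at the other times. Fos (difference 2.08, adjusted p = 0.0361) and Map3k1 (1.78, adjusted p = 0.0276) lost the call without any of the 4 numbers (adjusted p 0.103 to 0.282 for Fos and 0.0644 to 0.281 for Map3k1). Saa3 was among the 13 lower genes: its change was 0.15, -0.11, -1.35 and -1.21 at those 4 times and -1.74 at 120 min (difference -1.11, SE 0.20, adjusted p = 0.000214, and 0.0552 without number 3).

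Other changes were present from the first time point. At 15 min Hsph1 changed by -0.98 (adjusted p = 4.18e-18), Kctd11 by 1.87 (7.08e-12) and Hbegf by 1.53 (5.88e-09). The change in Cxcl1 was -1.15, -1.20, -0.67 and -1.01 at the 4 other times, on the same side of 0 as at 120 min. The change in Il6 was -0.96, -2.20, -2.12 and -1.18, and the difference between 120 min and the other times did not pass for it (adjusted p = 0.49).

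**Figure D3:**
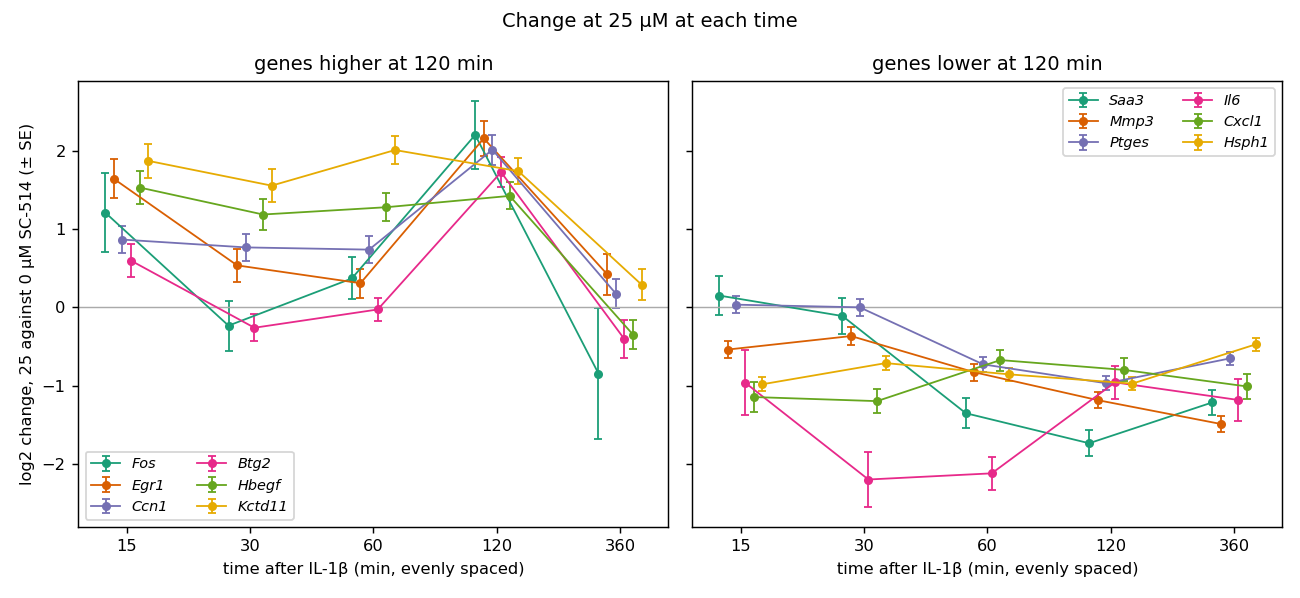
Change between 25 and 0 µM SC-514 on the log2 scale (vertical axis) at 5 times after IL-1β (horizontal axis, minutes, evenly spaced), for 6 genes higher and 6 genes lower at 120 min; bars are the SE of the fit. Egr1, Fos, Ccn1 and Btg2 are highest at 120 min, Kctd11 and Hbegf are above 1 from 15 to 120 min, and Hsph1 and Cxcl1 lie below 0 at every time.

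With TNF-α in place of IL-1β the sign at 25 µM was the same in 95.0% of the higher and 95.2% of the lower genes, against 70.9% of all genes tested, and the medians were 0.34 and -0.34. In the test of the difference between the stimuli 0 genes were higher (0.0%) and 2 lower (0.0186%), while 494 had an unadjusted p under 0.05. The 2 were Cxcl1 and Rpl38, a ribosomal protein gene that was looked up after its values were seen. Cxcl1 read 955, 741, 788 and 806 CPM with TNF-α at 0 µM and 844, 783, 1043 and 1007 CPM at 25 µM, with overlapping groups, against the separate groups with IL-1β. The difference of its changes was -0.96 (SE 0.20, interval -1.36 to -0.56, adjusted p = 0.032). It did not pass by DESeq2 (adjusted p = 0.41) or without any of the 4 numbers (0.0898, 0.0595, 0.981 and 1.0).

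The log2 differences of Il6 and Icam1 between 25 and 0 µM were 0.054 and -0.0015 with TNF-α, against -0.96 and -0.89 with IL-1β. The intervals of the difference were -1.57 to -0.46 and -1.46 to -0.32, and neither passed over all genes (adjusted p = 0.459 and 0.737). Mmp3 changed by -1.001 with TNF-α (interval of the difference -0.47 to 0.10), Ptges by -0.88 (-0.35 to 0.16), Hsph1 by -0.84 (-0.38 to 0.11), Egr1 by 1.96 (-0.48 to 0.88) and Kctd11 by 1.72 (-0.51 to 0.55). For these 5 genes the interval of the difference included 0. The conflict in the labels bears on which stimulus is which in each of these statements.

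**Figure D4:**
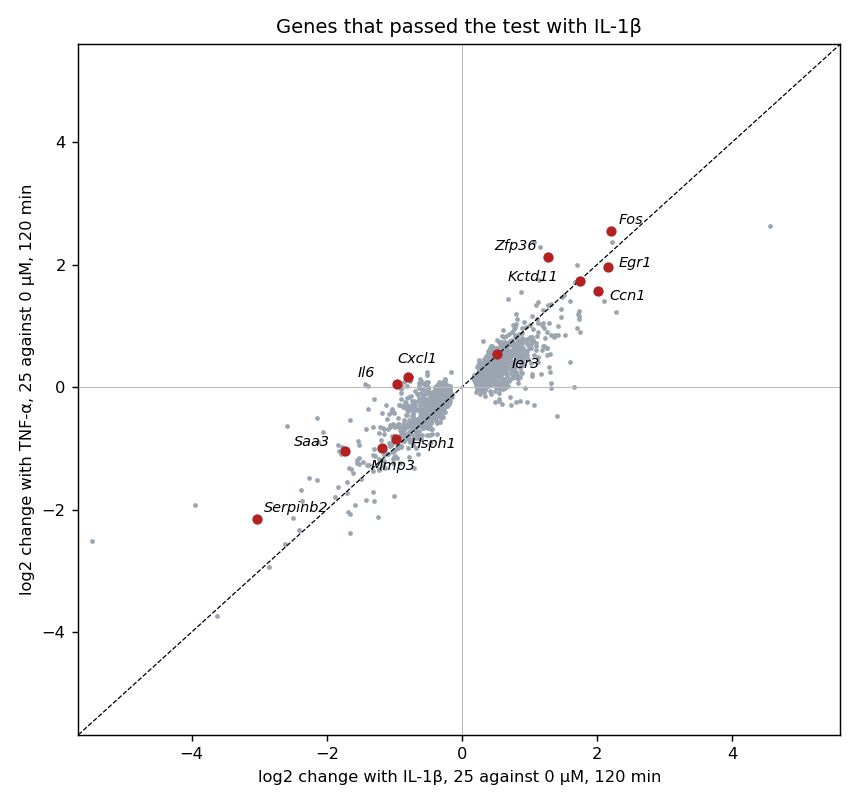
Change between 25 and 0 µM SC-514 at 120 min on the log2 scale with IL-1β (horizontal axis) and with TNF-α (vertical axis), for the 1501 genes that passed with IL-1β; the broken line marks equal change. Most points share their sign, Mmp3, Hsph1 and Kctd11 lie near the line, and Cxcl1 and Il6 lie near 0 with TNF-α.

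In promoter windows from 250 bases before to 50 after a RefSeq start, the NF-κB consensus was found on either strand in 9.96% of 793 windows of lower genes, 10.4% of 759 windows of higher genes and 10.4% of 10865 windows of all genes tested. It was in 8.46% of all 32851 windows of the RefSeq table. The AP-1 element TGANTCA was in 6.94% of the windows of lower genes, 4.87% of those of higher genes and 5.0% of those tested. The CArG box, added after the rise of Egr1 and Srf had been seen, was in 2.77% for higher genes, 1.64% for lower genes and 1.24% of those tested. The CRE, TGACGTCA, was in 2.24%, 2.65% and 3.14% of the windows of higher, lower and tested genes. The antioxidant element TGACNNNGC was in 14.0%, 13.2% and 14.4%, and can overlap a CRE. A gene can have more than 1 window, 575 of 727 higher, 601 of 774 lower and 8497 of 10766 tested genes matched a RefSeq symbol, and these shares are descriptions with no test.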

How the data were processed

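Transcripts of 3T3 cells were counted at their 3′ ends, 656 sample records being 164 libraries with 4 records each. The deposited values are whole-number read counts per gene as the authors made them, for 22070 gene IDs. Per the submitters' processing notes, reads were aligned with Bowtie2 to GRCm38; how reads were counted, and on which annotation, is not given in the sources used here. Columns were matched to samples by the first line of each description, and symbols were taken from GENCODE M21 (21858 IDs matched, 212 did not).

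Library totals were 928906 to 2469454 counts (median 1282459), except 2 shallow libraries outside the compared groups with 3839 and 12191. In the compared groups 3 counts are worth 1.96 to 2.38 CPM, and this and all intervals cover counting error or library spread only. None of the 246 pairs of libraries within groups was identical.

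All 164 libraries in 41 groups were fitted in edgeR 4.0.16 (R 4.3.3, limma 3.58.1) by its quasi-likelihood test with TMM scaling and filterByExpr, which left 10766 genes; p-values were adjusted by Benjamini-Hochberg over these. Levels are edgeR's scaled CPM. The procedure was tested on simulated data, where 5 of 125 calls were false. Simulated libraries were drawn independently from the means and spread of the fit, so effects shared between real libraries were not covered. Genes named are the 10 largest falls and rises without overlap and with at least 5 CPM, excluding predicted, ribosomal protein and mitochondrial genes, 20 genes of the pathway, up to 3 members of each list and up to 5 genes a direction in each further test; other list members were named to describe their list. The members and lists were chosen with earlier results of these data known. Alternatives were RLE scaling, no count filter, a replicate block, no shallow libraries, each replicate left out, the 8 libraries alone and DESeq2 1.42.0. The genes raised at 60 min, the CArG box, RLE without the shallow libraries and the fit without number 1 at 100 µM were added after the data were seen.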

Additional observations from a re-analysis of the deposited data

Results flagged for a closer look

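Among 76 groups of 4 libraries tested for a library apart from the other 3 (gap over range above Dixon's 95% critical value), 5 had one, where chance gives about 1 in 20 groups. These were the highest Il1a level at 0 µM, 11.6 CPM, the highest Gpr84 level at 25 µM, 2.04 CPM, the lowest Cxcl1 level at 25 µM, 260.5 CPM, the lowest Ccl2 level at 25 µM, 2708 CPM, and the lowest Ikbkb level at 0 µM, 40.0 CPM.

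The change at 25 µM differed between IL-1β and TNF-α in 2 genes by the test of the difference, among them Cxcl1 at -0.96 on the log2 scale. By DESeq2 0 genes passed, and without 1 replicate number in every group 0 to 1 did. Cxcl1 passed in none of these fits.

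Between 120 min and the other times the change differed in 40 genes by the test of the difference. Of the named genes these were Fos (2.08), Egr1 (1.43), Ccn1 (1.38), Map3k1 (1.78), Btg2 (1.75), Ptger4 (1.02) and Ier3 (0.52) with the higher change at 120 min, and Saa3 (-1.11), Fam57a (-1.09), Zbtb7c (-1.08), Hivep2 (-0.78) and Repin1 (-0.70) with the lower one. Fam57a, Zbtb7c, Hivep2 and Repin1 each lost the call in at least 3 of the 4 fits without 1 replicate number. Fos and Map3k1 lost it in all 4 of these fits, Egr1 in that without number 4 and Saa3 in that without number 3.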

How the results depend on the processing

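The 1501 calls at 25 against 0 µM became 1506 with RLE scaling, 1227 without the count filter, 1501 without the shallow libraries, 1517 with RLE and without them, 1622 in the 8 libraries alone and 1154 by DESeq2. Without 1 replicate number in every group they were 842 to 1174, and without 1 library of the comparison 1128 to 1327. The 57 calls of the step from 25 to 50 µM became 131 without the filter, 84 by DESeq2 and 15 to 49 without 1 number. The 1413 calls from 25 to 100 µM became 842 to 1121 without 1 number. The 2 calls between stimuli became 5 with RLE, 11 without the filter, 4 without the shallow libraries, 4 with RLE and without them, 0 by DESeq2 and 0 to 1 without 1 number. The 40 calls between times became 92 without the filter, of which 56.5% were higher against 67.5%, and 8 to 22 without 1 number. The 1349 calls of IL-1β against no stimulus became 854 to 1054 without 1 number, and with RLE 54.6% were higher against 65.2% (63.6% with RLE and without the shallow libraries). The higher share from 25 to 100 µM was 38.6%, 52.1% with RLE and 41.3% with RLE and without the shallow libraries. Both RLE shifts were thus smaller once these 2 libraries were left out. With TMM scaling and without them the higher share was 41.7% from 25 to 100 µM and 62.0% for IL-1β against no stimulus. Fewer libraries enter the fits without 1 number, and the cause of the other differences was not tested. The main fit did not pair libraries by replicate number, and whether the numbers mark a pairing was not tested. Deviations of same-numbered libraries at 25 and 0 µM correlated at 0.083, 0.040, 0.011 and 0.041. Those of differently numbered libraries correlated at -0.068 to 0.072. With a replicate block the calls were 1881 (all 1501 among them), 146 from 25 to 50 µM, 1708 from 25 to 100 µM, 7 between stimuli and 86 between times, of which 52.3% were higher; the block was not run for IL-1β against no stimulus. Without 1 replicate or library the change of Ccl2 ranged from -0.075 to 0.019 around -0.028, with 3 fits above 0, and that of Nfkbiz from -0.012 to 0.18 around 0.099, with 1 below 0, neither being called. In the named genes, 2611 of 2885 results under an alternative kept direction and call, 237 lost the call, 33 gained it and 4 reversed. Depth limits low genes: 3 counts are worth 1.96 to 2.38 CPM.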
